A study of Mus musculus with 6 samples.

Results

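The genes described here are the protein-coding mouse genes whose symbols name respiratory chain and ATP synthase subunits (Ndufa, Ndufb, Ndufc, Ndufs and Ndufv, Sdha to Sdhd, Uqc, Cyc1, Cox4 to Cox8, Atp5) or their mitochondrially encoded partners (mt-Nd, mt-Co, mt-Atp, mt-Cytb). The symbol rule took 111 of the 56350 gene IDs in the count table, 98 of them nuclear and 13 on the mitochondrial chromosome. These IDs carry 110 distinct symbols, since Atp5o stands under 2 IDs, one of which had a count of 0 in every library. The rule also takes 11 assembly factors (Ndufaf and Uqcc genes), 8 tissue isoforms or paralogs, the supercomplex factor Cox7a2l and Atp5s, coupling factor B, and these were described apart from the subunits. Another 13 IDs fit the symbols but are not protein coding, 12 processed pseudogenes and 1 long noncoding RNA, and were left out.

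Gene expression was measured by RNA sequencing of polyadenylated RNA from mouse liver. The 6 samples were 3 of liver with a hepatocyte-specific Atg14 knockout (HepKO) and 3 of wild-type liver (WT). The Atg14 protein directs a phosphatidylinositol kinase complex to the sites where autophagosomes form. The labels do not name the Cre line, and they give no sex, age, diet or litter. Whether each sample came from its own animal is not stated, and the p-values thus cover only the variation among these 6 samples. Below, HepKO livers and WT livers stand for these samples, and n = 3 counts samples. The knockout is directed at hepatocytes, while the RNA came from liver tissue, so the other liver cells in both groups contributed RNA. In bulk RNA, fewer cells of a type and less RNA per cell cannot be told apart.

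The respiratory chain sits in the inner mitochondrial membrane. Complex I passes electrons from NADH to ubiquinone and complex II does so from succinate, complex III passes them on to cytochrome c, and complex IV hands them to oxygen. Complexes I, III and IV pump protons, and complex V, the ATP synthase, lets them flow back to make ATP. All complexes but complex II are built from proteins of both genomes. The nuclear subunits are made in the cytosol and imported, while the mitochondrial ones are transcribed as long precursors from mitochondrial DNA and translated inside the organelle. Hepatocytes are rich in mitochondria and use this ATP for gluconeogenesis, urea synthesis and biosynthesis.

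Libraries held 33145684 to 48951937 counts in HepKO and 35720011 to 41754560 in WT. Atg14 itself averaged 7.36 ± 1.48 CPM in HepKO livers and 21.4 ± 0.682 CPM in WT livers (SD, n = 3 each), and its log2 ratio of HepKO to WT (log2FC) was -1.54 ± 0.16 (SE, edgeR FDR 4.69e-04). CPM here are counts set to a common library size after scaling by the trimmed mean of M-values (TMM), which sets the typical gene equal between the groups. Genes were called lower or higher at an edgeR quasi-likelihood FDR (Benjamini-Hochberg over all 16051 tested genes) under 0.05, and the verbs rose and fell below refer to that test under TMM. The scaling matters here: across the tested genes, TMM gave a median log2FC of 0.01 and plain library totals one of 0.52. Values under library totals are therefore given beside those under TMM for the groups. HepKO replicate 1 stood apart, with 30377 counts of Xist, the RNA of the inactive X chromosome, against at most 22 in any other library. Cell type markers also moved: all 10 hepatocyte markers fell (7 were lower under library totals), with a summed level of 44820 to 56007 CPM in HepKO livers and 115584 to 135450 CPM in WT livers. Of 25 markers of other liver cells, 11 rose and 2 fell (15 were higher and 1 lower under library totals), with a summed level of 1372 to 1657 CPM in HepKO livers and 687 to 838 CPM in WT livers. Over all tested genes, 18.7% were lower and 19.5% higher under TMM, and 5.84% were lower and 46.4% higher under library totals. Of the 25 markers of other liver cells, 12 were not called under TMM, and no marker gene had an average of 0 in either group. The part of these markers in the results below was not tested.

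Promoters of nuclear members are shown first, because the transcription factors NRF1 and GABP are known to bind promoters of many respiratory genes. The sequences are from the RefSeq promoter table of build GRCm38.p6, which held 77 of the nuclear members, and cover the 250 bases before the start, 5′ to 3′ on the gene's strand. Capitals mark the NRF1 motif, which is GCGCA, any base and GCGC, or the ETS motif of GABP, CCGGAAG, each read on either strand. The 4 genes are the member with the lowest log2FC (Ndufaf4), a complex IV subunit with both motifs (Cox6a1), and the isoform pair Cox6b1 and Cox6b2, of which the first fell under TMM and the second rose. They lie at chr4:24897833-24898082 on the plus strand (Ndufaf4), and on the minus strand at chr5:115348959-115349208 (Cox6a1), chr7:30626115-30626364 (Cox6b1) and chr7:4753095-4753344 (Cox6b2).
Ndufaf4: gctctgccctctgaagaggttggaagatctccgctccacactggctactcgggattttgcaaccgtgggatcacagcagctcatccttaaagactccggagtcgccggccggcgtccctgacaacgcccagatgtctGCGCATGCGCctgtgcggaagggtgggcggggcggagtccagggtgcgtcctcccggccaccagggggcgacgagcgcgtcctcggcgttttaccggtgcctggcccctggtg
Cox6a1: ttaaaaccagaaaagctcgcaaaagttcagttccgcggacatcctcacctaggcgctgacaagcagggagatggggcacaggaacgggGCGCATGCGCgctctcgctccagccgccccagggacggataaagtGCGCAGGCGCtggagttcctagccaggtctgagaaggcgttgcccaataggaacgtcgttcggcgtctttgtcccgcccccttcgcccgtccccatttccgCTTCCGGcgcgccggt
Cox6b1: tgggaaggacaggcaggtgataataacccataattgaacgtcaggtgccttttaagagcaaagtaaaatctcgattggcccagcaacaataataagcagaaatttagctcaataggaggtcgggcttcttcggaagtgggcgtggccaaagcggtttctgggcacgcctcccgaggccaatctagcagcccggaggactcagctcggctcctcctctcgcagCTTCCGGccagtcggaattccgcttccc
Cox6b2: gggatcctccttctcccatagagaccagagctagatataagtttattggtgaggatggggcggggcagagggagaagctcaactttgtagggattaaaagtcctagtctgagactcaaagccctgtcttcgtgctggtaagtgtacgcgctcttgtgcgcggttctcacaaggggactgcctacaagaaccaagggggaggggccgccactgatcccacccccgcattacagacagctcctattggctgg
The Ndufaf4 promoter holds an NRF1 match that begins 113 bases before the start. Cox6a1 holds NRF1 matches that begin 162 and 117 bases before the start and an ETS match on the opposite strand 16 bases before it. Cox6b1 has an ETS match on the opposite strand 28 bases before the start. In the Cox6b2 window neither motif was found.

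Counted over the whole window, 250 bases before to 50 after the start, the NRF1 motif stood in 20 of 77 nuclear members (26.0%), against 5.19% of all 27025 promoters and 7.45% of 16515 protein-coding ones. The ETS motif stood in 18 (23.4%), against 9.93% of all promoters and 13.4% of protein-coding ones. AAGATGG, a YY1 motif, stood in 12 (15.6%), against 7.28% of all promoters. AAGGTCA, the half-site that ESRRA binds, stood in 9 (11.7%), against 5.38% of all promoters. The searches covered both strands, and the 4 motifs were counted each on its own. Under TMM the median log2FC was -0.54 over the 19 tested members with the NRF1 motif and -0.49 over the 55 without it, and under library totals the medians were -0.03 and 0.02. For the ETS motif the medians were -0.54 over 18 members with it and -0.52 over 56 without it, and -0.02 and -0.0038 under library totals. For YY1 they were -0.36 over 12 members with the motif and -0.53 over 62 without it, and 0.15 and -0.02 under library totals. For the ESRRA half-site they were -0.55 over 9 members with it and -0.52 over 65 without it, and -0.03 and -0.01 under library totals. A match is a description of the letters and shows no binding.

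Under TMM, 63 of the 91 tested nuclear members fell in HepKO livers and 1 rose, and 4 of the 13 mitochondrial members fell and none rose. Of all tested genes, 18.7% were lower and 19.5% higher. The median log2FC was -0.54 for nuclear members and -0.40 for mitochondrial members. Against the library totals, 9 nuclear members were lower and 6 higher, where 5.84% of all tested genes were lower and 46.4% higher. The median then was -0.03 for nuclear members and 0.11 for mitochondrial members, so the direction of the mitochondrial median depends on the scaling. Those called lower under both scalings included Ndufs1, Ndufb9, Ndufaf1, Ndufaf4, Sdha, Sdhb, Uqcrc2 and Atp5g3. Under library totals the members called higher were Ndufaf5, Ndufaf8, Cox7a2l, Cox6b2, Atp5g2, Atp5s and the mitochondrial mt-Co2.

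**Figure D1:**
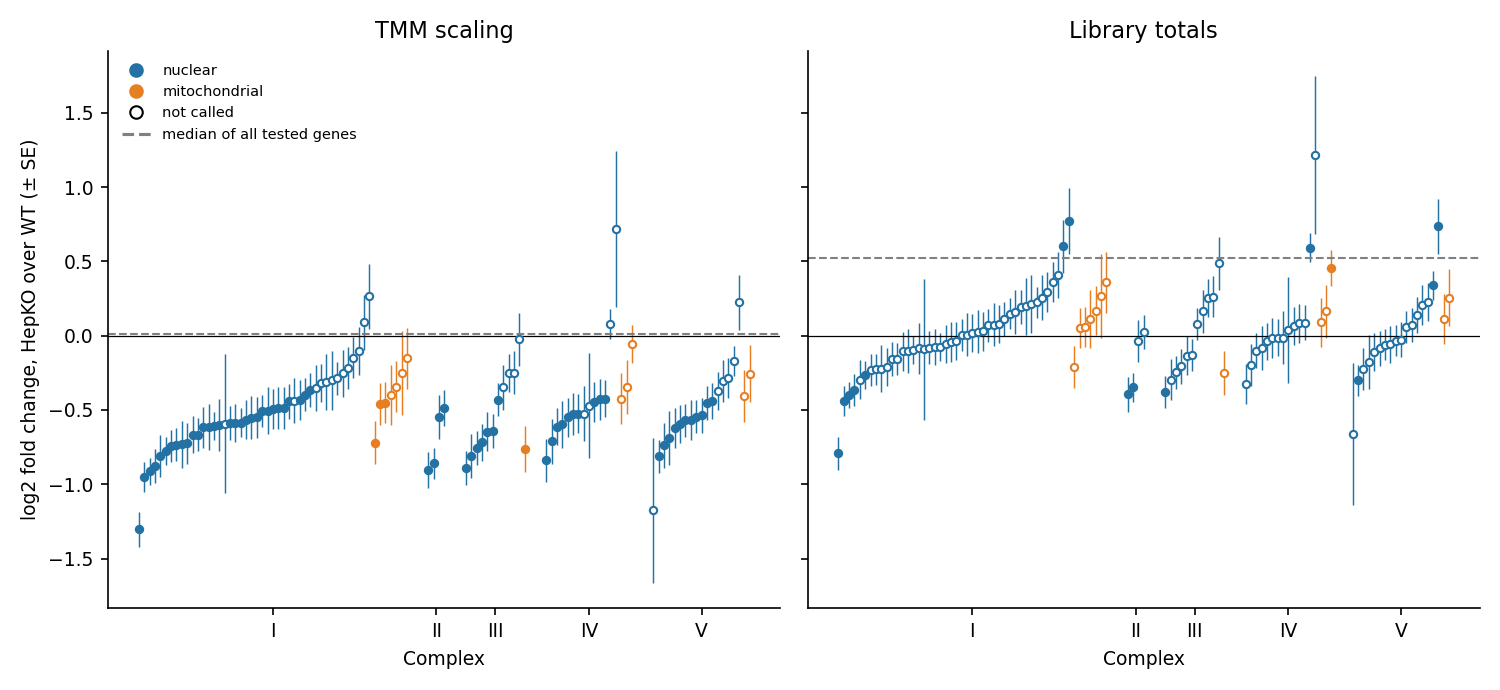
Each point is a tested member, with the log2 fold change (HepKO over WT) and its standard error on the y axis. In both panels the points are ordered by the fold change under TMM within each complex and genome. Nuclear genes are blue, mitochondrial ones orange, and filled points are called at an FDR under 0.05. Cox6b2 (log2FC 4.57 under TMM) was left out of both panels. With TMM most nuclear members lie below 0 and the median of all genes is at 0.01. With library totals the median of all genes is at 0.52, and nuclear members spread around 0.

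Counted without overlap, all 3 HepKO livers were below all 3 WT livers in TMM-scaled CPM for 68 nuclear and 5 mitochondrial members, against 26.4% of all tested genes. All HepKO livers were above all WT livers for 1 tested nuclear member, Cox6b2, against 27.1% of all tested genes. The number of calls moved with single libraries. Without HepKO replicate 1, 73 nuclear and 7 mitochondrial members were lower, and without HepKO replicate 3, 41 nuclear and 2 mitochondrial ones. Without WT replicate 1, WT replicate 3 or HepKO replicate 2, 2 mitochondrial members were lower. Over all tested genes the lower calls moved too, from 3006 with all libraries to 2896 without HepKO replicate 1 and 2316 without HepKO replicate 3. They were 2483 without WT replicate 1, 2055 without WT replicate 3 and 2359 without HepKO replicate 2.

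Complex I takes the largest share of the rule. Of its 36 nuclear subunits 27 fell and none rose, with a median log2FC of -0.56 under TMM and -0.05 under library totals. Of its 7 nuclear core subunits, which carry the flavin, the iron-sulfur clusters and the quinone site, 6 fell. Ndufs1, the largest subunit of the electron-input arm and a carrier of iron-sulfur clusters, had 98.3, 89.5 and 92.1 CPM in HepKO livers and 164, 183 and 194 CPM in WT livers. Every HepKO liver was below every WT liver, with a log2FC of -0.95 ± 0.10 (edgeR FDR 4.68e-04), and of -0.44 under library totals. Ndufv1, the subunit that binds NADH and the flavin, had 110, 101 and 94.9 CPM in HepKO livers and 156, 150 and 160 CPM in WT livers. Ndufv2, its partner in the NADH module, had 89.3, 61.2 and 79.1 CPM in HepKO livers and 130, 103 and 119 CPM in WT livers. Both fell without overlap, with a log2FC of -0.61 ± 0.096 for Ndufv1 and -0.61 ± 0.15 for Ndufv2 (edgeR FDR 0.00215 and 0.0160). Ndufs8, an iron-sulfur subunit near the quinone site, had 53.7, 41.1 and 43.2 CPM in HepKO livers and 75.9, 66.9 and 76.4 CPM in WT livers. Ndufs7, which carries the last cluster before ubiquinone, had 24.1, 19.6 and 20.9 CPM in HepKO livers and 26.4, 28.9 and 29.8 CPM in WT livers. Their log2FC were -0.67 ± 0.12 and -0.40 ± 0.11 (edgeR FDR 0.00448 and 0.0249), and under library totals -0.16 and 0.11, so the direction for Ndufs7 turns with the scaling.

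Ndufs3, another core subunit, had almost no counts: 54, 34 and 22 in HepKO livers and 18, 58 and 40 in WT livers. The groups overlapped, and no call was made (log2FC -0.59 ± 0.47, edgeR FDR 0.357). A processed pseudogene on chromosome 11, Gm12251, is 98.6% identical to 75.7% of the Ndufs3 transcript and held 18 to 28 counts per library. A low count here was not read as a low level of the mRNA.

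The 29 accessory subunits, which surround the core and are needed for its assembly and stability, gave 21 calls, all lower. Their median log2FC was -0.51 under TMM and 0.01 under library totals. The lowest was Ndufb9, a membrane-arm subunit, with 71.1, 59.0 and 58.3 CPM in HepKO livers and 122, 105 and 120 CPM in WT livers. Its HepKO livers were all below its WT livers (log2FC -0.88 ± 0.12, edgeR FDR 0.00103), and it was the only accessory subunit also called lower under library totals (log2FC -0.37). The highest was Ndufa2, with 46.7, 33.9 and 31.5 CPM in HepKO livers and 44.7, 36.5 and 39.3 CPM in WT livers. Its groups overlapped, and it was not called (log2FC -0.10 ± 0.16, edgeR FDR 0.653). Between these ends, 8 of 10 Ndufb genes fell with a median log2FC of -0.60, and 10 of 14 Ndufa genes fell with a median of -0.46, all under TMM, and under library totals the medians were -0.09 for Ndufb and 0.05 for Ndufa genes. The 8 that did not pass the test were Ndufa2, Ndufa3, Ndufa12, Ndufa13, Ndufb4, Ndufb7, Ndufs4 and Ndufs6. Ndufab1, the mitochondrial acyl carrier protein, which also serves lipoic acid synthesis, fell with a log2FC of -0.49 ± 0.13 (edgeR FDR 0.0221).

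The assembly factors of complex I held the member with the lowest log2FC of the whole rule. Ndufaf4, an assembly factor of complex I known from human cells, had 23.8, 20.3 and 19.1 CPM in HepKO livers and 54.9, 47.7 and 53.5 CPM in WT livers. Each HepKO liver was far below each WT liver. The log2FC was -1.30 ± 0.12 (edgeR FDR 2.51e-04), a level 2.47-fold lower in HepKO livers, and -0.79 under library totals. Ndufaf1, a part of the complex that assembles the membrane arm, had 22.6, 21.6 and 23.2 CPM in HepKO livers and 41.9, 40.4 and 44.7 CPM in WT livers. It also fell under both scalings (log2FC -0.91 ± 0.091, edgeR FDR 3.66e-04, and -0.40 under library totals). Ndufaf6 and Ndufaf7 fell under TMM, with log2FC of -0.60 and -0.48. Ndufaf5, which in human cells hydroxylates NDUFS7, had 5.75, 4.19 and 4.34 CPM in HepKO livers and 3.38, 4.32 and 4.19 CPM in WT livers, and Ndufaf8 had 6.70, 5.57 and 5.67 CPM in HepKO livers and 5.24, 5.15 and 6.47 CPM in WT livers. Ndufaf2 and Ndufaf3 were also not called (log2FC -0.30 and -0.31). Neither Ndufaf5 nor Ndufaf8 passed the test under TMM (log2FC 0.27 ± 0.22 and 0.09 ± 0.18), while both were called higher under library totals. Over all 11 assembly factors that the symbol rule took, 5 fell, and the median log2FC was -0.31 under TMM and 0.20 under library totals.

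Complex II, succinate dehydrogenase, is shared with the tricarboxylic acid cycle and has no mitochondrially encoded subunit. All 4 of its genes fell, with a median log2FC of -0.70 under TMM and -0.19 under library totals. Sdha, the flavoprotein that oxidises succinate, had 370, 351 and 348 CPM in HepKO livers and 613, 627 and 700 CPM in WT livers. Sdhb, the iron-sulfur subunit, had 130, 103 and 107 CPM in HepKO livers and 198, 210 and 228 CPM in WT livers. Both fell without overlap under TMM and were also called lower under library totals, with log2FC of -0.86 ± 0.10 and -0.91 ± 0.12 under TMM (edgeR FDR 7.86e-04 and 0.00106) and -0.35 and -0.40 under library totals. The membrane anchors Sdhc and Sdhd also fell under TMM. Sdhc had 173, 134 and 143 CPM in HepKO livers and 209, 200 and 222 CPM in WT livers. Sdhd had 145, 110 and 123 CPM in HepKO livers and 218, 164 and 170 CPM in WT livers. Their log2FC were -0.49 ± 0.12 for Sdhc and -0.55 ± 0.15 for Sdhd (edgeR FDR 0.0149 and 0.0218), and neither was called under library totals (0.03 and -0.03), where the direction of Sdhc turned.

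Complex III had 9 nuclear subunits in the rule, of which 8 were tested and 6 fell, with a median log2FC of -0.68 under TMM and -0.17 under library totals. Uqcrc2, a core protein of the matrix side, had 180, 143 and 172 CPM in HepKO livers and 298, 300 and 320 CPM in WT livers. It was the lowest of the complex and fell under both scalings (log2FC -0.89 ± 0.11, edgeR FDR 9.65e-04, and -0.38 under library totals). Cyc1, cytochrome c1, had 81.1, 62.2 and 70.3 CPM in HepKO livers and 117, 116 and 128 CPM in WT livers. Uqcrfs1, the Rieske iron-sulfur protein, had 164, 130 and 147 CPM in HepKO livers and 221, 224 and 241 CPM in WT livers. For both, the HepKO livers lay below the WT livers without overlap (log2FC -0.76 ± 0.12 and -0.64 ± 0.11, edgeR FDR 0.00203 and 0.00334). Uqcrb, Uqcrq and Uqcr11, small subunits, fell with log2FC of -0.81, -0.72 and -0.43, while Uqcrh was not called (-0.35). Uqcr10 had the highest log2FC of the subunits, -0.25 ± 0.14, with overlapping groups and no call. Uqcrc1, the partner of Uqcrc2 and an abundant protein in liver mitochondria, had only 2, 7 and 9 counts in HepKO livers and 7, 9 and 4 in WT livers, and was not tested. No copy of at least 95% identity over at least 50% of its transcript was found for it. Among the assembly factors, Uqcc1 fell (log2FC -0.65 ± 0.13) and Uqcc3 was not called (-0.25 ± 0.13), while Uqcc2 had 19.4, 13.3 and 12.5 CPM in HepKO livers and 15.7, 13.9 and 16.5 CPM in WT livers, overlapping groups and a log2FC of -0.03 ± 0.18.

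Complex IV, cytochrome c oxidase, had 11 tested nuclear subunits, of which 10 fell. The median log2FC was -0.53 under TMM and -0.02 under library totals, and none was called under library totals. Cox4i1, the largest nuclear subunit, had 331, 256 and 288 CPM in HepKO livers and 472, 395 and 413 CPM in WT livers. Cox7b, a small subunit encoded on the X chromosome and the lowest of the complex, had 114, 85.8 and 99.1 CPM in HepKO livers and 204, 155 and 176 CPM in WT livers. Their groups did not overlap (log2FC -0.55 ± 0.13 and -0.84 ± 0.14, edgeR FDR 0.0125 and 0.00302). Cox5b, a zinc-binding subunit, had 89.3, 59.4 and 78.0 CPM in HepKO livers and 124, 102 and 117 CPM in WT livers. Cox6c had 215, 165 and 185 CPM in HepKO livers and 362, 262 and 302 CPM in WT livers. Cox7c had 130, 89.8 and 106 CPM in HepKO livers and 166, 147 and 156 CPM in WT livers. All 3 of these fell without overlap, with log2FC of -0.60 ± 0.16, -0.71 ± 0.15 and -0.53 ± 0.14 (edgeR FDR 0.0193, 0.00795 and 0.0210). Cox5a, a matrix-side subunit, had 132, 81.2 and 111 CPM in HepKO livers and 177, 131 and 158 CPM in WT livers. HepKO replicate 1 lay above WT replicate 2, and the test was just missed (log2FC -0.52 ± 0.19, edgeR FDR 0.0578). Ndufa4, found with complex I and later placed in complex IV, had 232, 181 and 223 CPM in HepKO livers and 303, 262 and 288 CPM in WT livers. It fell with a log2FC of -0.42 ± 0.12 (edgeR FDR 0.0291), and its direction turned under library totals (0.09).

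Tissue isoforms of complex IV replace the common subunits in heart, muscle, lung or testis. Cox6b2, the testis form of Cox6b1, was the one member called higher under TMM. Its counts were 256, 44 and 49 in HepKO livers and 3, 4 and 2 in WT livers. Every HepKO liver was above every WT liver, and HepKO replicate 1 was the highest by far. The level was 2.21 ± 1.91 CPM in HepKO livers and 0.0904 ± 0.0281 CPM in WT livers (SD, n = 3 each), with a log2FC of 4.57 ± 0.78 (SE, edgeR FDR 0.00295). Without HepKO replicate 1 the log2FC was 3.57 (edgeR FDR 0.00504). Cox6b1, the common form, had 230, 173 and 210 CPM in HepKO livers and 306, 251 and 278 CPM in WT livers. It fell under TMM (log2FC -0.45 ± 0.13, edgeR FDR 0.0326), and its direction turned under library totals (0.07). Counts of Cox6b2 over those of Cox6b1 were 0.0192, 0.00567 and 0.00594 in HepKO livers, against 0.000331, 0.000445 and 0.000211 in WT livers. This ratio within a library does not depend on the scaling, its groups did not overlap, and Cox6b2 had fewer counts than Cox6b1 in every library. The Cox6b2 gene spans chr7:4751792-4753094 and Cox6b1 chr7:30616861-30626151, both on the minus strand of GRCm38.

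**Figure D2:**
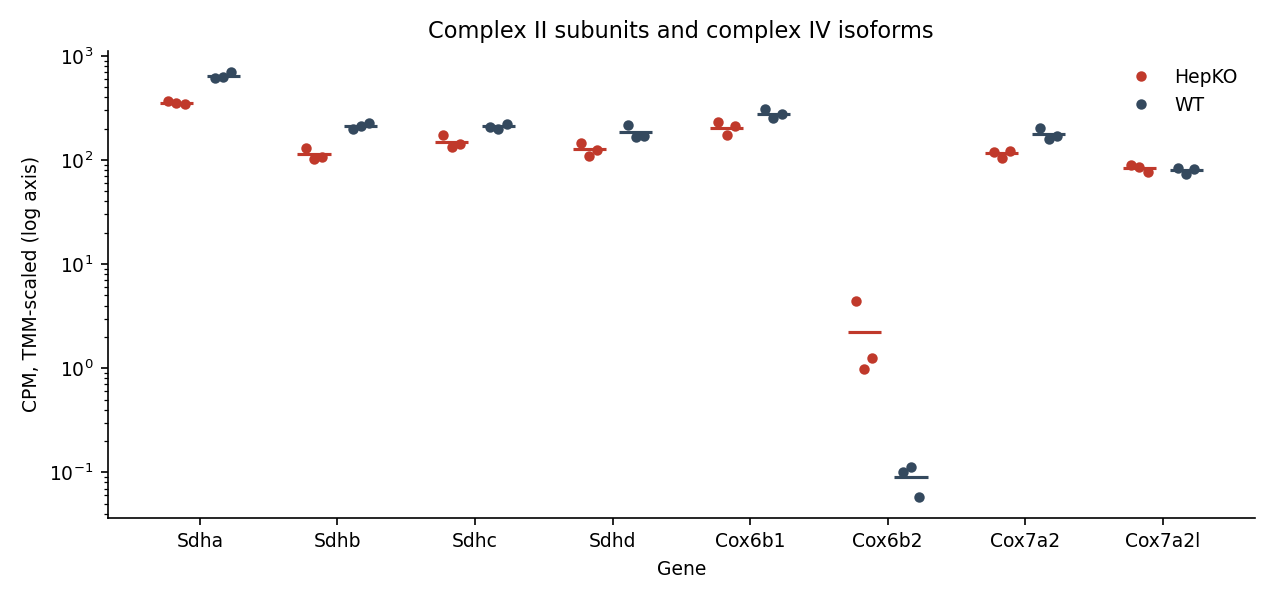
TMM-scaled CPM (log axis) of the complex II subunits and of complex IV isoforms, with 1 point per library and a bar at the mean of 3 libraries, HepKO red and WT dark grey. Sdha to Sdhd and Cox6b1 lie lower in HepKO livers, Cox6b2 lies higher at 2.21 CPM on average in HepKO livers against 0.0904 CPM in WT livers, and Cox7a2l overlaps. With library totals the fold change of Sdhc and Cox6b1 is above 0.

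Most other tissue isoforms had few counts in these livers. Cox6a2, the heart and muscle form of Cox6a1, had 8, 5 and 8 counts in HepKO livers and 0 in each WT liver, at least 4.90-fold higher when the WT group as a whole is given a floor of 3 counts, and it was too low to be tested. Cox6a1 had 117, 88.7 and 94.7 CPM in HepKO livers and 157, 129 and 146 CPM in WT livers, and fell (log2FC -0.53 ± 0.13, edgeR FDR 0.0156). Cox7a1, the heart and muscle form of Cox7a2, had 0.981, 0.401 and 0.889 CPM in HepKO livers and 0.473, 0.613 and 0.293 CPM in WT livers. Its groups overlapped (log2FC 0.72 ± 0.53, edgeR FDR 0.321). Cox7a2 had 121, 105 and 121 CPM in HepKO livers and 203, 157 and 169 CPM in WT livers, with no overlap, and fell (log2FC -0.61 ± 0.12, edgeR FDR 0.00643). Cox7a2l, a related protein that joins complexes III and IV into supercomplexes, had 89.3, 86.4 and 76.9 CPM in HepKO livers and 84.1, 72.7 and 82.5 CPM in WT livers. Its log2FC was 0.08 ± 0.10 under TMM with overlapping groups (edgeR FDR 0.588), and it was called higher under library totals (0.59). Cox8a had 92.6, 64.8 and 73.2 CPM in HepKO livers and 103, 99.3 and 108 CPM in WT livers and fell under TMM (log2FC -0.43 ± 0.14, edgeR FDR 0.0405), and its direction turned under library totals (0.08). Ndufa4l2, a paralog of Ndufa4 known as a hypoxia target, had 0.930, 1.16 and 0.838 CPM in HepKO livers and 1.08, 1.34 and 1.64 CPM in WT livers and was not called. Cox4i2, the lung form, had 9, 0 and 0 counts in HepKO livers and 6, 4 and 1 in WT livers. Cox8b had 2, 0 and 6 counts in HepKO livers and 6, 1 and 0 in WT livers, and Cox7b2 and Cox8c had none in any library.

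The ATP synthase had 17 nuclear subunit IDs, of which 16 were tested and 11 fell, with a median log2FC of -0.56 under TMM and -0.05 under library totals. Atp5b, the catalytic beta subunit, had 844, 719 and 777 CPM in HepKO livers and 1183, 1119 and 1173 CPM in WT livers. Atp5c1, the rotating gamma subunit, had 252, 202 and 236 CPM in HepKO livers and 344, 322 and 341 CPM in WT livers. Both fell without overlap (log2FC -0.57 ± 0.11 and -0.54 ± 0.11, edgeR FDR 0.00568 and 0.00682). The stalk and membrane subunits Atp5d, Atp5f1, Atp5h, Atp5j, Atp5k, Atp5l and Atp5o fell as well, with log2FC of -0.74 for Atp5k to -0.44 for Atp5l. Atp5e, Atp5j2 and Atp5mpl were not called (-0.37, -0.28 and -0.30). Atp5a1, the alpha subunit that alternates with beta in the catalytic ring, had 16, 11 and 9 counts in HepKO livers and 21, 15 and 20 in WT livers. The groups did not overlap in CPM, but no call was made (log2FC -1.17 ± 0.49, edgeR FDR 0.0930). No copy of at least 95% identity over at least 50% of its transcript was found, and the cause of the low counts was not tested.

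Mammals encode the c subunit of the membrane ring in a family of genes that give the same mature protein. Atp5g3 had 281, 232 and 250 CPM in HepKO livers and 456, 420 and 463 CPM in WT livers, and fell under both scalings (log2FC -0.81 ± 0.11, edgeR FDR 0.00124, and -0.30 under library totals). Atp5g1 had 61.1, 38.1 and 38.0 CPM in HepKO livers and 72.0, 74.6 and 74.7 CPM in WT livers, and fell under TMM (log2FC -0.69 ± 0.18, edgeR FDR 0.0204). Atp5g2 had 31.2, 26.8 and 27.5 CPM in HepKO livers and 33.5, 30.5 and 32.5 CPM in WT livers. Its groups overlapped, and it passed no test under TMM (log2FC -0.17 ± 0.10, edgeR FDR 0.214) but was called higher under library totals (0.34). Of the 3 genes, Atp5g3 had the lowest log2FC and Atp5g2 the highest. Atp5s, coupling factor B, had 7.20, 10.5 and 9.32 CPM in HepKO livers and 7.23, 7.22 and 8.66 CPM in WT livers, with overlapping groups and a log2FC of 0.22 ± 0.18 (edgeR FDR 0.374). Atpif1, the protein that inhibits ATP hydrolysis by the synthase, lies outside the symbol rule and was looked up after the values of the members were seen. Its counts were 2491, 1174 and 1224 in HepKO livers and 271, 341 and 317 in WT livers, without overlap, and it rose with a log2FC of 1.84 ± 0.18 (edgeR FDR 3.59e-04).

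Per kilobase of the principal annotated transcript, the nuclear subunits differed in level by complex. Over subunits with a mean of at least 5 CPM, the median level was 59.9 CPM per kb in HepKO livers and 74.8 in WT livers for complex I (35 genes). For complex II (4 genes) it was 101 CPM per kb in HepKO livers and 168 in WT livers. Complex III (8 genes) had a median of 128 CPM per kb in HepKO livers and 184 in WT livers, and complex IV (11 genes) one of 175 in HepKO livers and 268 in WT livers. Complex V (15 genes) had 152 CPM per kb in HepKO livers and 230 in WT livers. The order of the complexes, from I as the lowest to IV as the highest, was the same in both groups. Across these 73 genes the Spearman rho of log2FC with transcript length was -0.35, against 0.03 over 9474 protein-coding genes. The median log2FC was -0.59 over the 36 longer transcripts, of which 31 fell, and -0.53 over the 37 shorter ones, of which 27 fell. Under library totals the medians were -0.08 over the longer and -0.01 over the shorter transcripts. Against mean CPM, rho was -0.38 across the 73 genes and -0.28 over the protein-coding genes. The genes share the same 6 libraries, so these values are descriptions.

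The mitochondrial chromosome encodes 7 complex I subunits, 1 of complex III, 3 of complex IV and 2 of complex V. Together the 13 mRNAs took 6.96% to 8.83% of the counts in HepKO libraries and 7.50% to 7.84% in WT libraries. The 98 nuclear members took 0.854% to 1.07% in HepKO libraries and 0.968% to 1.04% in WT libraries. In both cases the HepKO range spanned the WT range. In TMM-scaled CPM the mitochondrial sum was 74418, 61907 and 58643 CPM in HepKO livers and 94607, 87292 and 92058 CPM in WT livers, without overlap. The counts split into 2 classes. For 7 genes every library held at least 29785 counts, and for the 6 genes between mt-Co1 and mt-Nd4 the counts were 214 to 5539.

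Of the 7 well-counted genes, 4 fell under TMM. mt-Cytb, the cytochrome b of complex III and its sole mitochondrial subunit, had 12682, 11518 and 10563 CPM in HepKO livers and 20822, 18483 and 19753 CPM in WT livers. mt-Nd5, a proton-pumping subunit at the far end of the membrane arm of complex I, had 6888, 6981 and 5773 CPM in HepKO livers and 10793, 10850 and 10722 CPM in WT livers. Neither gene overlapped between the groups, and the log2FC were -0.76 ± 0.16 and -0.72 ± 0.14 (edgeR FDR 0.00652 and 0.00618). Under library totals they were -0.25 and -0.21, and not called. mt-Nd2, another pumping subunit, had 8415, 7485 and 7078 CPM in HepKO livers and 10916, 9985 and 10713 CPM in WT livers. mt-Nd4, its neighbour in the membrane arm, had 5611, 5354 and 4698 CPM in HepKO livers and 7224, 6732 and 7456 CPM in WT livers. Both fell without overlap under TMM (log2FC -0.46 ± 0.14 and -0.45 ± 0.14, edgeR FDR 0.0364 and 0.0350), and turned direction under library totals (0.05 and 0.06). mt-Co1, the catalytic subunit of complex IV, had 30696, 22958 and 22827 CPM in HepKO livers and 32813, 31278 and 33090 CPM in WT livers. The groups did not overlap, but the test was not passed (log2FC -0.35 ± 0.18, edgeR FDR 0.177). mt-Nd1, which helps to form the quinone site, had 8802, 6703 and 6714 CPM in HepKO livers and 10472, 8792 and 8900 CPM in WT livers. mt-Nd6, the single protein gene on the other strand, had 1125, 690 and 757 CPM in HepKO livers and 1260, 967 and 1169 CPM in WT livers. Both overlapped, with log2FC of -0.34 ± 0.17 and -0.40 ± 0.20 (edgeR FDR 0.151 and 0.156), and the direction of mt-Co1, mt-Nd1 and mt-Nd6 turned under library totals (0.17, 0.17 and 0.11).

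**Figure D3:**
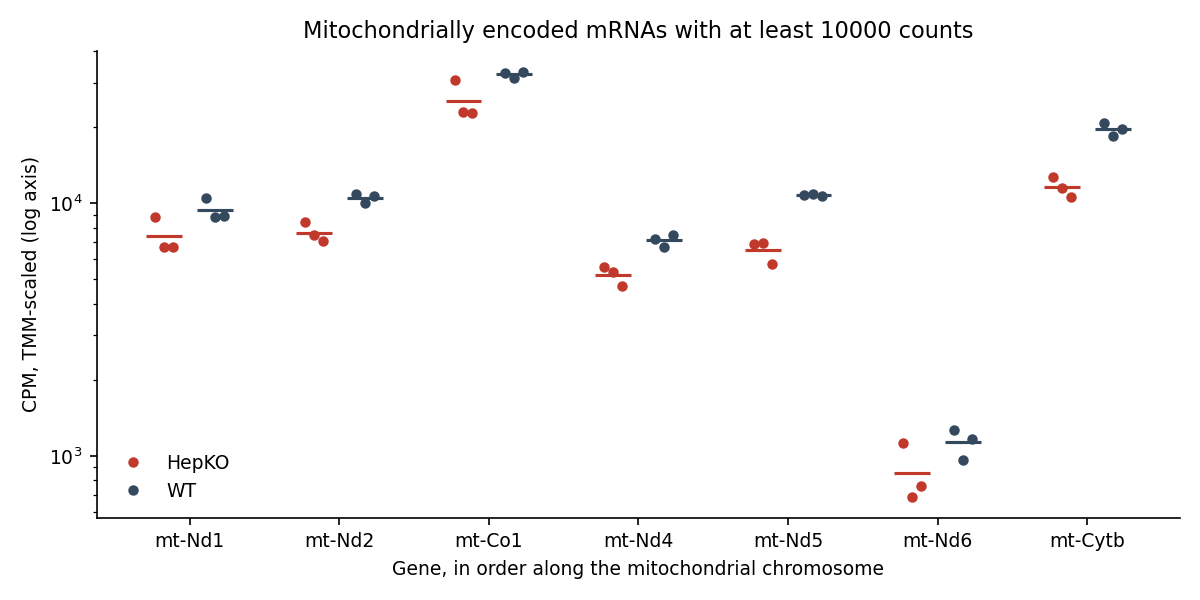
TMM-scaled CPM (log axis) of the 7 mitochondrial mRNAs with at least 10000 counts in every library, with 1 point per library, a bar at the mean of 3 libraries, HepKO red and WT dark grey. The 3 HepKO livers lie below the 3 WT livers for mt-Nd2, mt-Co1, mt-Nd4, mt-Nd5 and mt-Cytb, while mt-Nd1 and mt-Nd6 overlap. With library totals mt-Cytb and mt-Nd5 keep a fold change below 0.

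Ratios between mitochondrial mRNAs of one library do not depend on any scaling between libraries. mt-Cytb over mt-Co1 was 0.413, 0.502 and 0.463 in HepKO livers and 0.635, 0.591 and 0.597 in WT livers. Every HepKO liver was below every WT liver (mean 0.459 ± 0.0444 in HepKO livers and 0.607 ± 0.0236 in WT livers, SD, n = 3 each, log2 difference -0.40). mt-Nd5 over mt-Co1 was 0.224, 0.304 and 0.253 in HepKO livers and 0.329, 0.347 and 0.324 in WT livers, again without overlap (log2 difference -0.36). The ratios of mt-Nd1, mt-Nd2, mt-Nd4 and mt-Nd6 to mt-Co1 overlapped between the groups, with log2 differences of 0.01, -0.10, -0.09 and -0.07. As a share of all mitochondrial mRNA counts, mt-Cytb made up 17.04%, 18.61% and 18.01% in HepKO livers and 22.01%, 21.17% and 21.46% in WT livers. mt-Co1 made up 41.2%, 37.1% and 38.9% in HepKO livers and 34.7%, 35.8% and 35.9% in WT livers. All HepKO livers had a lower share of mt-Cytb and a higher share of mt-Co1 than any WT liver. These genes were chosen for the comparison after their fold changes were seen, and no test was run on the ratios.

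The 6 sparsely counted genes lie next to each other at chrM:7013-10173 of GRCm38, in the order mt-Co2, mt-Atp8, mt-Atp6, mt-Co3, mt-Nd3 and mt-Nd4l. Per kilobase they stood at 18.5 to 144 CPM in HepKO livers and 20.6 to 150 CPM in WT livers. The other 7 stood at 1652 to 16501 CPM per kb in HepKO livers and 2181 to 20967 CPM per kb in WT livers. A near-identical copy of this stretch lies in the nuclear genome at chr1:24611535-24616197, where the annotation names pseudogenes for it. Gm28661, the copy of mt-Co2, is 100% identical over 99.6% of its length, and Gm28437, the copy of mt-Co3, is 100% identical over 99.9%. Gm10925, Gm28438 and Gm10222 are copies of mt-Atp6, mt-Nd3 and mt-Nd4l at 99.7% to 100% identity. Partial copies in this stretch of mt-Co1 (Gm29216) and mt-Nd4 (Gm28439) cover 31.3% and 63.6% of those genes. The 7 copies on chromosome 1 held 326 to 6353 counts per library. Less identical copies lie elsewhere. On chromosome 2, Gm13340 covers 100% of mt-Co1 at 97.6% identity and Gm13341 covers 100% of mt-Co2 at 95.9%. Gm4076 on chromosome 13 covers 52.3% of mt-Nd5 at 95.2%. Over all libraries these held 22699, 7173 and 1581 counts. For mt-Co2 the mitochondrial gene itself had 5539, 4299 and 4132 counts in HepKO livers and 3522, 3075 and 3530 in WT livers, and Gm28661 had 6353, 4739 and 3866 counts in HepKO livers and 3928, 4257 and 4205 in WT livers. The gene and its copy were counted at like levels, and reads that match both cannot be told apart. How the counting treated such reads is not given in the sources used here, and their part in the low counts was not tested.

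**Figure D4:**
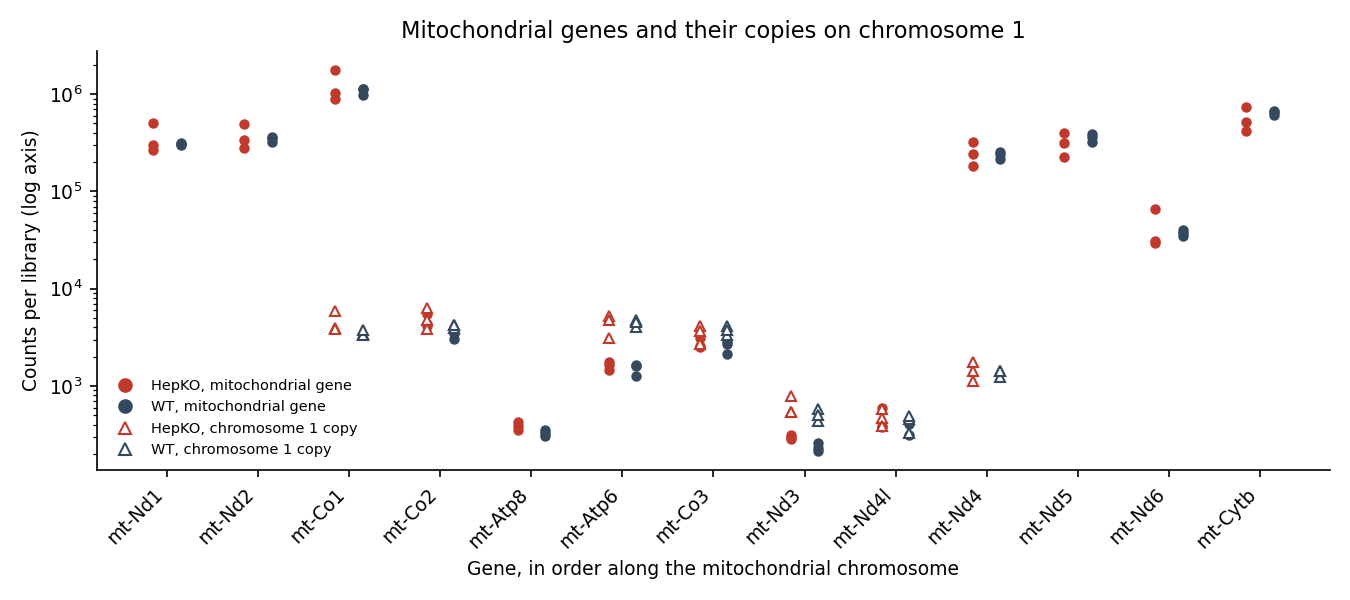
Counts per library (log axis) of the 13 mitochondrial genes in chromosome order (circles) and of their copies on chromosome 1 (triangles), HepKO red and WT dark grey. The 6 genes from mt-Co2 to mt-Nd4l hold 214 to 5539 counts, like the copies at 326 to 6353, while the other 7 genes hold at least 29785.

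None of the 6 passed the test. Their log2FC under TMM ran from -0.42 for mt-Co3 to -0.06 for mt-Co2, with overlapping groups. mt-Co3, a subunit beside the catalytic core of complex IV, had 53.5, 56.4 and 64.9 CPM in HepKO livers and 96.7, 59.7 and 78.3 CPM in WT livers. mt-Co2, which takes the electrons from cytochrome c, had 95.4, 95.8 and 105 CPM in HepKO livers and 119, 85.7 and 103 CPM in WT livers, and it was called higher under library totals (0.46). mt-Atp6, the proton channel of the ATP synthase, had 30.0, 36.8 and 37.3 CPM in HepKO livers and 55.9, 34.9 and 47.2 CPM in WT livers. mt-Atp8, whose reading frame overlaps that of mt-Atp6, had 6.66, 9.41 and 8.89 CPM in HepKO livers and 11.9, 9.08 and 8.87 CPM in WT livers. WT replicate 1 was the highest library for both. mt-Nd3 had 5.41, 6.71 and 7.22 CPM in HepKO livers and 8.82, 6.41 and 6.26 CPM in WT livers, and mt-Nd4l had 6.54, 13.3 and 9.78 CPM in HepKO livers and 14.6, 8.78 and 11.9 CPM in WT livers. When the counts of each gene and its chromosome 1 copy were added, a step chosen after the counts were seen, 6 mitochondrial members were lower. The added ones were mt-Co3 (log2FC -0.52 ± 0.10, edgeR FDR 0.00576) and mt-Atp6 (log2FC -0.50 ± 0.11, edgeR FDR 0.0104). Most counts in both sums came from the chromosome 1 copies. Over all libraries Gm28437 held 21778 counts against 15876 for mt-Co3, and Gm10925 held 26366 against 9381 for mt-Atp6. On their own, Gm28437 and Gm10925 were lower too (log2FC -0.60 and -0.54, edgeR FDR 0.00280 and 0.00989).

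The nuclear and the mitochondrial mRNAs were set against each other within each library. Over all members the ratio of nuclear to mitochondrial counts was 0.122, 0.115 and 0.135 in HepKO livers and 0.133, 0.129 and 0.134 in WT livers. The groups overlapped (mean 0.124 ± 0.0101 in HepKO livers and 0.132 ± 0.00258 in WT livers, SD, n = 3 each), with a log2 difference of -0.09. For complex I it was 0.0774, 0.0689 and 0.0816 in HepKO livers and 0.0805, 0.0791 and 0.0840 in WT livers. For complex III it was 0.0895, 0.0749 and 0.0929 in HepKO livers and 0.0758, 0.0777 and 0.0797 in WT livers. For complex IV it was 0.0615, 0.0622 and 0.0726 in HepKO livers and 0.0806, 0.0689 and 0.0720 in WT livers. All 3 overlapped, with log2 differences of -0.10, 0.14 and -0.17. The complex III ratio rests on mt-Cytb alone. That of complex IV rests almost wholly on mt-Co1, with 6935345 counts over all libraries against 24097 for mt-Co2 and 15876 for mt-Co3. Against mt-Co1 alone the log2 difference was -0.27 for complex III and -0.17 for complex IV. Against mt-Cytb alone it was 0.14 and 0.24, so the opposite signs of complexes III and IV went with the mitochondrial partner. The ratio for complex V was 48.1 to 76.6 in HepKO livers and 56.9 to 79.6 in WT livers, and it rests on the sparsely counted mt-Atp6 and mt-Atp8. In each complex that uses both genomes the groups overlapped.

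**Figure D5:**
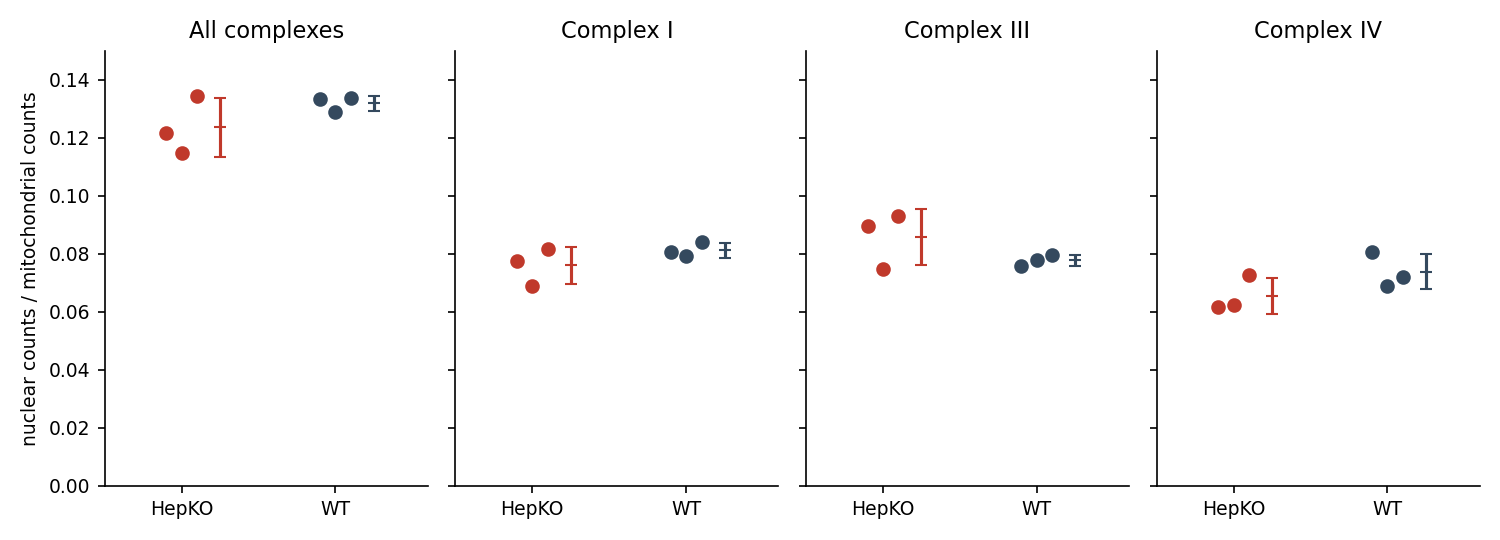
Summed counts of nuclear members over summed counts of mitochondrial members in each library, for all complexes and for complexes I, III and IV. Points are libraries, bars beside them the mean and SD of 3 libraries, HepKO red and left, WT dark grey. The groups overlap in all 4 panels, at 0.124 on average in HepKO livers and 0.132 in WT livers over all complexes.

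The choice of mitochondrial partner set the direction of that ratio. Against mt-Co1 alone, all nuclear members stood at 0.295, 0.309 and 0.346 in HepKO livers and 0.384, 0.360 and 0.372 in WT livers, without overlap (log2 difference -0.23). Against mt-Cytb alone they stood at 0.713, 0.616 and 0.747 in HepKO livers and 0.605, 0.609 and 0.623 in WT livers, with overlap and the opposite sign (log2 difference 0.18). Complex II has no mitochondrial subunit and was set against all mitochondrial mRNA. It stood at 0.0110, 0.0113 and 0.0123 in HepKO livers and 0.0131, 0.0138 and 0.0143 in WT livers, without overlap (log2 difference -0.25). Its ratio moved with the partner too. Against mt-Co1 alone the log2 difference was -0.39, without overlap, and against mt-Cytb alone it was 0.02, with overlap. Scaled to the mitochondrial mRNA total, 5 nuclear members were lower (Ndufaf4, Ndufs1, Ndufaf1, Ndufb9 and Sdhb) and 7 higher, where 4.95% of all tested genes were lower and 39.4% higher. Those 5 were lower under all 3 scalings, and Cox6b2 was higher under all 3.

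Other genes of the pathway are given by lists. The calls in each list stand beside those over all tested genes. Of these, 18.7% were lower and 19.5% higher under TMM, and 5.84% were lower and 46.4% higher under library totals. Of 40 tested genes for mitochondrial transcription, RNA handling and translation, 22 fell and none rose under TMM (median log2FC -0.48), while library totals gave 5 lower and 5 higher calls (median 0.03). Hsd17b10, a subunit of mitochondrial RNase P, averaged 74.5 ± 6.41 CPM in HepKO livers and 259 ± 39.4 CPM in WT livers (log2FC -1.79 ± 0.14, edgeR FDR 1.41e-04). Fastkd1, an RNA-binding protein of mitochondria, fell with a log2FC of -0.97 ± 0.10, and Taco1, which activates translation of mt-Co1 mRNA, with one of -0.91 ± 0.11 (edgeR FDR 4.68e-04 and 6.87e-04). Of 41 tested assembly factors outside the symbol rule, 23 fell and none rose under TMM (median log2FC -0.41), while library totals gave 4 lower and 10 higher calls (median 0.11). The 3 with the smallest p were Ecsit, Tmem126b and Timmdc1, all factors of complex I assembly, with log2FC of -1.14, -0.83 and -0.63.

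Of 19 tested genes for electron carriers and coenzyme Q synthesis, 12 fell and none rose under TMM (median log2FC -0.51), while library totals gave 4 lower and 4 higher calls (median -0.0016). Etfa and Etfdh, which pass electrons from fatty acid oxidation to ubiquinone, fell with log2FC of -1.01 and -0.94, and Coq10b, a coenzyme Q-binding protein, with one of -1.62. Of 22 tested genes of the tricarboxylic acid cycle and pyruvate dehydrogenase, 19 fell and 2 rose under TMM (median log2FC -0.57; Pdp1 and Pdk4 rose), while library totals gave 4 lower and 2 higher calls (median -0.06). Fh1, fumarase, which follows complex II in the cycle, fell with a log2FC of -1.09, Pdk1, a kinase that turns pyruvate dehydrogenase off, with one of -2.09, and Pdp2, a phosphatase that turns it on, with one of -1.15. Of 17 tested regulators of respiratory genes, 8 fell and 1, Pprc1, rose under TMM (median log2FC -0.43), while library totals gave 3 lower and 6 higher calls (median 0.06). Ppargc1a and Ppargc1b were among those that fell (log2FC -1.04 and -0.98, edgeR FDR 0.00935 and 0.00738). Neither was called under library totals (-0.53 and -0.47). Ppara, a nuclear receptor for fatty acids, averaged 86.5 CPM in HepKO livers and 290 CPM in WT livers (log2FC -1.75). Epas1, a hypoxia-inducible factor, fell with a log2FC of -0.93, and Esrrg, an orphan nuclear receptor, with one of -2.86. The factors whose motifs were searched are given for all 4 motifs, and were named after their values were seen. Nrf1 averaged 7.64 CPM in HepKO livers and 7.62 CPM in WT livers, with a log2FC of 0.0026 under TMM (edgeR FDR 0.991), and was called higher under library totals (log2FC 0.51, edgeR FDR 0.0231). Gabpa, the DNA-binding subunit of GABP, averaged 43.5 CPM in HepKO livers and 65.5 CPM in WT livers, fell under TMM (log2FC -0.59, edgeR FDR 0.00547) and was not called under library totals (-0.08). Esrra averaged 15.3 CPM in HepKO livers and 25.4 CPM in WT livers, fell under TMM (log2FC -0.73, edgeR FDR 0.00208) and was not called under library totals (-0.22). Yy1 averaged 57.4 CPM in HepKO livers and 66.6 CPM in WT livers, was not called under TMM (log2FC -0.22, edgeR FDR 0.0765) and was called higher under library totals (0.30, edgeR FDR 0.0176).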

How the data were processed

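The authors deposited unnormalised read counts as 1 table of 6 libraries and 56350 gene IDs, which matched GENCODE M21 (GRCm38, the assembly of mm10) for 55480 IDs. Per the labels' protocols, RNA was purified with a column kit, and polyA RNA went into libraries with a stranded kit. The mm10 build, STAR 2.7.11a, featureCounts (Subread 2.0.0), bcl2fastq and edgeR 3.40.2 are named per the submitters' processing notes. The annotation release, the strand setting and the treatment of reads that match several places were not given in the sources used here, so overlapping genes and near-identical copies cannot be told apart. Copies of at least 95% identity over at least 50% of a transcript were found with blastn 2.17.0 for 16 members, 8 nuclear and 8 mitochondrial. The nuclear ones are Atp5h, Atp5k, Atp5l, both Atp5o IDs, Ndufb11, Ndufs3 and Uqcrb. The mitochondrial ones are mt-Atp6, mt-Co1, mt-Co2, mt-Co3, mt-Nd3, mt-Nd4, mt-Nd4l and mt-Nd5.

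HepKO was compared with WT with edgeR 4.0.16 (R 4.3.3, 2-sided quasi-likelihood F test, no covariate), on the 16051 genes kept by filterByExpr by group, with TMM factors. Standard errors of log2 fold changes were derived from the F statistic (absolute log2 fold change divided by its square root). Of 111 members 104 were tested, and of the 7 left out 3 had a count of 0 in every library. Members that passed the filter are a part of the rule, and no test was run over the list. Intervals were not drawn for low counts, and the floor of 3 counts covers counting error only. The fit was tried on simulated counts.

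The members and the gene lists were chosen with earlier results of these data known. Values in every library were given for all mitochondrial members, core subunits, isoform families, the lowest and highest nuclear member of each complex and members called higher, except 1 item that is not reported here. Of the other lists the 3 genes with the smallest p were named. Pdp1, Pdk4, Pprc1, Ppargc1a, Ppargc1b and further members were named after their values were seen. Alternatives were DESeq2 1.42.0, limma-voom 3.58.1, RLE factors, library totals, the mitochondrial mRNA total, scaling without chrM or without the 20 most abundant genes, other filters, an FDR of 0.01, a replicate block and leaving out each library.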

Additional observations from a re-analysis of the deposited data

How the results depend on the processing

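The scaling decided most calls. Under library totals 937 genes of all tested were lower and 7442 higher, and with the mitochondrial mRNA total as library size 795 were lower and 6331 higher. Nuclear members then gave 9 and 5 lower calls and 6 and 7 higher calls, and mitochondrial members 0 lower and 1 higher call under each. The nuclear median log2FC was -0.034 and -0.049, and the mitochondrial one 0.11 and 0.12. In the same order, the sign of the log2FC turned for mt-Nd2 (0.051 and 0.035), mt-Nd4 (0.061 and 0.046), mt-Nd6 (0.11 and 0.078), mt-Nd1 (0.17 and 0.15), mt-Nd4l (0.27 and 0.29), mt-Nd3 (0.36 and 0.37), mt-Co3 (0.090 and 0.098), mt-Co1 (0.17 and 0.14), mt-Co2 (0.46 and 0.46), mt-Atp6 (0.11 and 0.12), mt-Atp8 (0.26 and 0.27), Ndufs7 (0.11 and 0.094), Sdhc (0.025 and 0.0050), Uqcc2 (0.49 and 0.45), Ndufa4l2 (0.040 and 0.026), Cox6b1 (0.066 and 0.052), Cox8a (0.083 and 0.058), Ndufa4 (0.087 and 0.076) and Atp5g2 (0.34 and 0.32). With single libraries left out, the log2FC ran from -0.25 to 0.019 for mt-Nd3 and -0.14 to 0.060 for mt-Co2, both turning without WT replicate 1, and from -0.0074 to 0.22 for Ndufaf8, turning without HepKO replicate 1. For Uqcc2 it ran from -0.26 to 0.085, turning without WT replicate 3, HepKO replicate 2 or HepKO replicate 3. Uqcc2 also turned (0.0011) when genes had to reach 1 CPM in 3 or more of the libraries. At an FDR of 0.01, 1693 genes were lower and 1751 higher, with 36 nuclear and 2 mitochondrial members lower. Leaving out each library in turn gave 41 to 73 nuclear and 2 to 7 mitochondrial members lower. The nuclear median was then -0.65 to -0.47 and the mitochondrial median -0.49 to -0.26, and 2055 to 2896 of all tested genes were lower. With the replicate number as a replicate block, 66 nuclear and 2 mitochondrial members were lower, and 2502 of all tested genes. The deviations of same-numbered libraries from their group means had correlations of -0.12, -0.068 and 0.0015. With 3 libraries per group, these values cannot settle whether the numbers pair the libraries. Against mt-Cytb alone the log2 ratio of nuclear to mitochondrial counts was 0.18 for all members, 0.17 for complex I, 0.24 for IV and 0.20 for V, and against mt-Co1 alone it was -0.23 for all, -0.24 for I and -0.27 for III. Over 52 named genes and all alternatives, 724 of 881 values kept their direction and their side of the threshold. DESeq2, limma-voom, RLE factors and scaling without chrM or the 20 most abundant genes turned no sign among them. The cause of the differences between scalings was not tested. Uqcrc1, Ndufs3, Atp5a1, Cox4i2, Cox6a2 and Cox8b had few counts, which limits the precision of their values.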
